A study of Mus musculus with 6 samples.

Results

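The enzymes that make and use 2-oxoglutarate from isocitrate, with 1 that clears 2-hydroxyglutarate, are encoded by 7 genes. These were chosen by symbol from the 11922 genes of the deposited count matrix and not by a measured value. Earlier results of these data were known when they were chosen. They are Idh1, Idh2, Idh3a, Idh3b, Idh3g, Ogdh and D2hgdh. All 7 were present once and all 7 passed the filter on low counts that left 11759 genes for testing. Splenic CD8+ T cells of 3 C57BL6/J mice, taken with magnetic beads against CD8 alpha, were activated with anti-CD3/anti-CD28 beads and recombinant human IL-2 at 100 units per ml for 72 hours, then expanded in IL-2 for a further 4 days. Both groups shared that treatment, and cells received either water (vehicle) or 0.25 mM AOA from the start until RNA was taken on day 7. AOA (aminooxyacetic acid) blocks enzymes that need pyridoxal phosphate, the active form of vitamin B6, which none of the 7 enzymes uses as its cofactor. Cells of each mouse were cultured under both treatments, which gave 3 libraries per group, and a replicate number is the number of the mouse.

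Isocitrate is oxidised to 2-oxoglutarate by enzymes of 2 kinds. IDH1, in the cytosol and peroxisomes, and IDH2, in mitochondria, use NADP and form NADPH. IDH3 is the NAD-linked enzyme of the citrate cycle, built of a catalytic alpha subunit (Idh3a) and the partner subunits beta (Idh3b) and gamma (Idh3g). OGDH is the first component (E1) of the complex that carries 2-oxoglutarate on to succinyl-CoA, and D2HGDH is the mitochondrial enzyme that oxidises D-2-hydroxyglutarate back to 2-oxoglutarate. In T cells, 2-oxoglutarate is also a substrate of the dioxygenases that act on histones, DNA and the hypoxia-inducible factor, and 2-hydroxyglutarate competes with it there.

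With AOA, the IDH3 subunit genes moved in different directions. Idh3a rose 3.04-fold. Idh3g rose 1.28-fold and Idh3b fell to 0.754 of its vehicle level, 2 small changes whose calls were lost when single libraries were left out. D2hgdh fell to 0.652 of its vehicle level. Idh1, Idh2 and Ogdh did not pass the test, and the ratio of Idh1 to Idh2 was lower with AOA in 3 of 3 mice. In counts, 2 of the 7 genes were called higher and 2 lower, against 26.2% of all tested genes called higher and 26.8% called lower, and the 3 others were not called. The share of these 7 genes called, 57.1%, lay near the 53% of all tested genes called in either direction, so it is not in itself a result about them. In 4 of the 7 the AOA and vehicle libraries did not overlap, against 62.1% of all tested genes. A gene is called where the edgeR quasi-likelihood test gave a Benjamini-Hochberg adjusted p under 0.05 over all tested genes. Only the calls of Idh3a and D2hgdh held with each of the 6 libraries left out in turn.

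Total counts per library ranged from 12881962 to 18934869 with vehicle and from 18696114 to 21997078 with AOA. Within groups, vehicle replicate 2 and AOA replicate 1 were the libraries most unlike their fellows, with a chi-square per gene of 55.1 to 71.1 in the pairs that held one of them and 10.02 to 10.5 in the other pairs. Without vehicle replicate 2 the members called were 2 higher and 3 lower, and without AOA replicate 1 they were 3 higher and 2 lower. The CD8 T cell markers were present in every library, with Cd8a at 654 to 914 CPM (read counts scaled to the normalised library size) with vehicle and 1455 to 1700 CPM with AOA. The summed CPM of 6 CD8 T cell markers was 3232 to 4154 with vehicle and 4334 to 5006 with AOA. Cd8a and Cd8b1 of that list were called higher (log2 fold changes of 1.03 and 0.64), while Cd3d, Cd3e, Cd3g and Cd247 were not called, with log2 fold changes of -0.13, -0.27, -0.31 and -0.16. Markers of other cells moved with the groups as well. The 4 CD4 T cell markers summed to 158 to 210.5 CPM with vehicle and 33.0 to 54.3 CPM with AOA. For the 4 myeloid markers in the matrix (of 6 listed) the sums were 55.5 to 67.5 CPM and 4.18 to 7.82 CPM, in which Lyz2 was at 0 in 2 vehicle libraries and Cd14 at 0 in 2 AOA libraries. The 3 NK markers summed to 30.3 to 134.5 CPM, the most in vehicle replicate 2, and to 8.02 to 19.7 CPM, and Ncr1 was at 0 in vehicle replicates 1 and 3. Sums were 12.6 to 16.6 CPM and 22.6 to 30.7 CPM for the 4 B cell markers in the matrix (of 5), and the single dendritic marker in the matrix (of 4), Xcr1, was at 4.37 to 5.26 CPM and 0.687 to 1.29 CPM. The part of such cells in the results below was not tested. In bulk RNA, fewer cells of a type and less RNA per cell cannot be told apart.

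The genes lie on 6 chromosomes of GRCm38 (mm10), the build named in the submitters' processing notes, and Idh1 and D2hgdh share chromosome 1. In the GENCODE vM21 annotation Idh3a (Entrez gene 67834) spans chr9:54586334-54604661 on the plus strand with 11 merged exons. Idh3b (170718) spans chr2:130279309-130284547 and Idh3g (15929) spans chrX:73778963-73786897, both on the minus strand. D2hgdh (98314) spans chr1:93824909-93852348 on the plus strand. Idh1 (15926) lies at chr1:65158616-65186500 and Idh2 (269951) at chr7:80094846-80115392, both minus, and Ogdh (18293) lies at chr11:6291633-6356642, plus. Exons of Idh3b share 5 bases with those of Nop56 on the opposite strand, and no exon of the other 6 genes overlaps an exon of another gene. D2hgdh transcripts match the annotated genes Gm18666 (99.6% identity over 567 bases) and Gm7889 (99.3% over 135 bases), longer than the 75-base reads, so the level of D2hgdh is uncertain to the extent that reads were shared. Idh1 and Idh2 transcripts were 78.2% identical over their best aligned stretch of 87 bases, and none of the members matched another at 95% identity or more.

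Promoter sequences from RefSeq (GRCm38.p6) were matched to 6 of the 7 genes, with 12 entries. The stretches upstream of the start of 3 called genes are shown because Idh3b and Idh3g encode partner subunits of 1 enzyme and moved in opposite directions, and because the fall of D2hgdh held with each library left out. Each is read 5′ to 3′ along the strand of its gene and leaves out annotated exons. The stretch of D2hgdh lies inside the annotated span of the gene, between exons, and exons of Ssr4 lie in the bases just upstream of the Idh3g stretch. Capitals mark matches to the motifs searched.
Idh3b, chr2:130284548-130284701, minus strand: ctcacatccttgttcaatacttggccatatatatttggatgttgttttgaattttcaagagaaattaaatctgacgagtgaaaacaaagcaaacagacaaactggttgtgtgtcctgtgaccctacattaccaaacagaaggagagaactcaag
Idh3g, chrX:73786898-73787027, minus strand: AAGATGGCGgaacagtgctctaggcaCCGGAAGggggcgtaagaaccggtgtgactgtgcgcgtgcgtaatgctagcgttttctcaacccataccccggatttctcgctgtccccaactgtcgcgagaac
D2hgdh, chr1:93825052-93825239, plus strand: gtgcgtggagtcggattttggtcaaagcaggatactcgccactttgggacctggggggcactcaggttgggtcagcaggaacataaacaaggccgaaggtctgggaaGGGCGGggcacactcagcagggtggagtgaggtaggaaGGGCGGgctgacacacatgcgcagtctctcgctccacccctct
On both strands of each window from 250 bases before to 50 bases after the start, the letters searched were GGGCGG (GC box, in 35.7% of all 32851 promoters of that length), CCAAT (37.4%), CCGGAAG (ETS core, 8.86%), AAGATGGCG (YY1 core, 1.4%), TGACGT (part of the cyclic AMP response element, 7.51%), ACGTG (hypoxia response core, 19.6%), CACGTG (E-box, 7.15%, which contains the letters ACGTG), and the NRF1 core was searched as well (4.6%). The Idh3g window held AAGATGGCG once, CCGGAAG once, TGACGT at 2 places and ACGTG once. The Idh3b window held CCGGAAG once and CCAAT once, both outside the stretch printed, which has none of the motifs. The D2hgdh window held GGGCGG at 2 places. A match is a run of letters and not a measured binding site.

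Idh3a, the catalytic subunit of the NAD-linked enzyme, showed the largest change of the 7 genes. Its level was 40.8, 64.03 and 42.8 CPM in vehicle replicates 1, 2 and 3 and 169, 140 and 140 CPM in AOA replicates 1, 2 and 3. The lowest AOA library stood above the highest vehicle library, vehicle replicate 2, by a factor of more than 2. Means were 49.2 ± 12.9 CPM with vehicle and 149.7 ± 17.1 CPM with AOA (SD, n = 3 each), a log2 fold change of 1.604 (standard error 0.19, 95% interval 1.17 to 2.04, adjusted p = 1.94e-04 by edgeR). It was larger than the changes of 94.6% of all tested genes when these are ordered from the most lowered to the most raised. Within mice 1, 2 and 3 the log2 CPM differed by 2.05, 1.12 and 1.71. Mouse 2, with the smallest difference, had the highest vehicle level, and without vehicle replicate 2 the log2 fold change was 1.87.

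Idh3b, the beta subunit and the most abundant of the 7 per length in both groups, moved the other way. It stood at 223, 187 and 228 CPM with vehicle and at 177, 147 and 157 CPM with AOA. Each AOA library was below each vehicle library, as for 31.1% of all tested genes. AOA lowered Idh3b by a log2 fold change of -0.41 (standard error 0.14, 95% interval -0.73 to -0.09, adjusted p = 0.0352 by edgeR), and within mice the log2 CPM fell by 0.34, 0.35 and 0.54. The call was lost without vehicle replicate 1, vehicle replicate 3, AOA replicate 2 or AOA replicate 3, with log2 fold changes from -0.39 to -0.33 and adjusted p up to 0.154.

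Idh3g, the gamma subunit, was at 89.4, 93.8 and 108 CPM with vehicle and at 123, 125 and 125 CPM with AOA. The AOA libraries lay close together and above all vehicle libraries, as for 31% of all tested genes. AOA raised Idh3g by a log2 fold change of 0.36 (standard error 0.13, 95% interval 0.08 to 0.64, adjusted p = 0.0368 by edgeR), with a higher level in 3 of 3 mice. With the mouse as a replicate block the value was 0.36 (adjusted p = 0.0596), which no longer passed. Removing the trend of each library with gene length gave 0.29 (adjusted p = 0.0822), and the call was also lost without vehicle replicate 1, AOA replicate 2 or AOA replicate 3 (adjusted p of 0.0956 to 0.121).

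**Figure D1:**
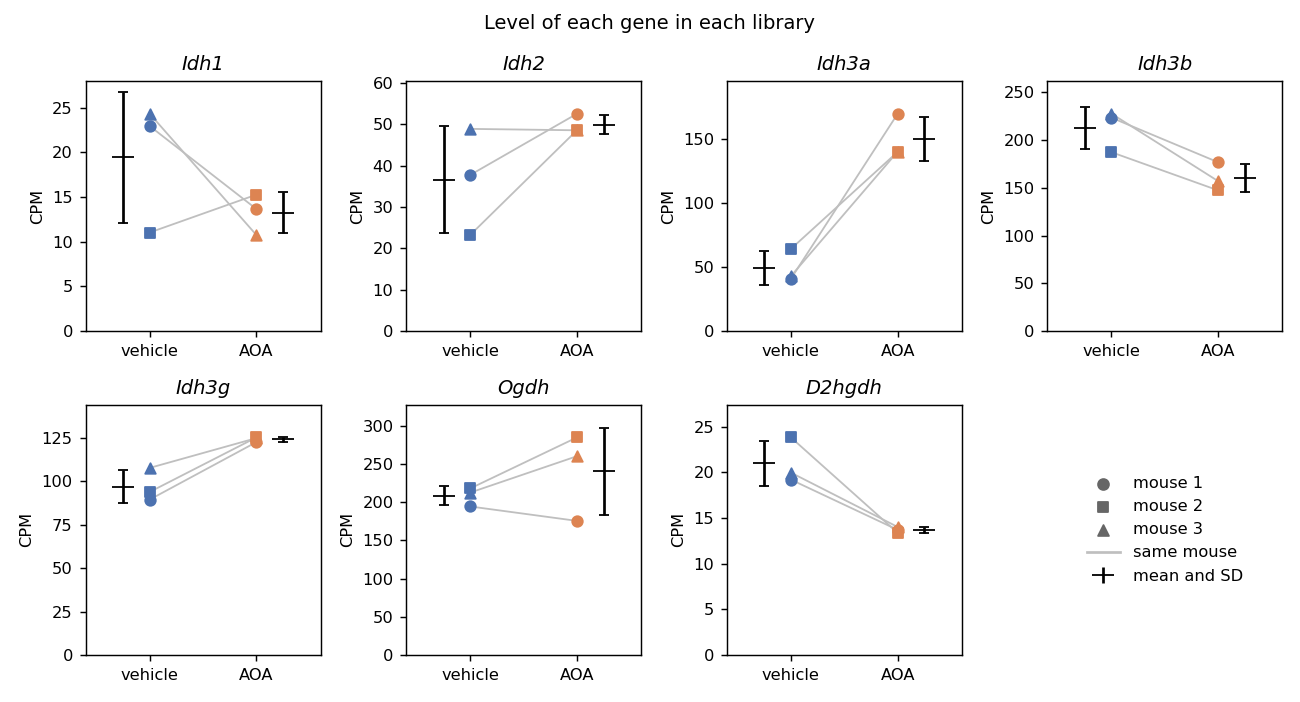
Level of each gene in CPM (linear axis from 0) in the 3 vehicle and 3 AOA libraries, with grey lines joining the libraries of a mouse and black marks for the mean and SD of each group. Idh3a runs from 40.8 to 64.03 CPM with vehicle and from 140 to 169 CPM with AOA, while the groups of Idh1, Idh2 and Ogdh overlap.

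Because the subunits are parts of 1 enzyme, their transcripts were compared per length, as CPM per 1000 bases of the deposited gene length (RPKM). The annotation behind these lengths is not given, so shares and levels compared between genes depend on them. Idh3a held 7.34%, 12.1% and 7.17% of the summed RPKM of the Idh3 genes with vehicle and 25.3%, 23.3% and 22.8% with AOA. Its share was 8.87 ± 2.79% (SD, n = 3) with vehicle and 23.8 ± 1.30% (SD, n = 3) with AOA. The share of Idh3b was 59.9 ± 3.85% and 40.3 ± 1.40%, and that of Idh3g was 31.2 ± 1.87% and 35.9 ± 2.50% (SD, n = 3 each). Idh3a remained the least abundant of the subunits in both groups. Its RPKM relative to the mean of Idh3b and Idh3g was 0.159, 0.275 and 0.155 with vehicle and 0.676, 0.608 and 0.591 with AOA. On the log2 scale this ratio differed by 1.72 ± 0.51 (SD over 3 mice), was higher in 3 of 3 mice and did not overlap between the groups. An exact two-sided permutation test over libraries, which does not use the pairing by mouse, gave p = 0.1. That is the smallest p that 3 libraries against 3 allow, and the adjusted p was 0.2 over the 4 ratios tested. A ratio within a library does not move with library scaling.

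**Figure D2:**
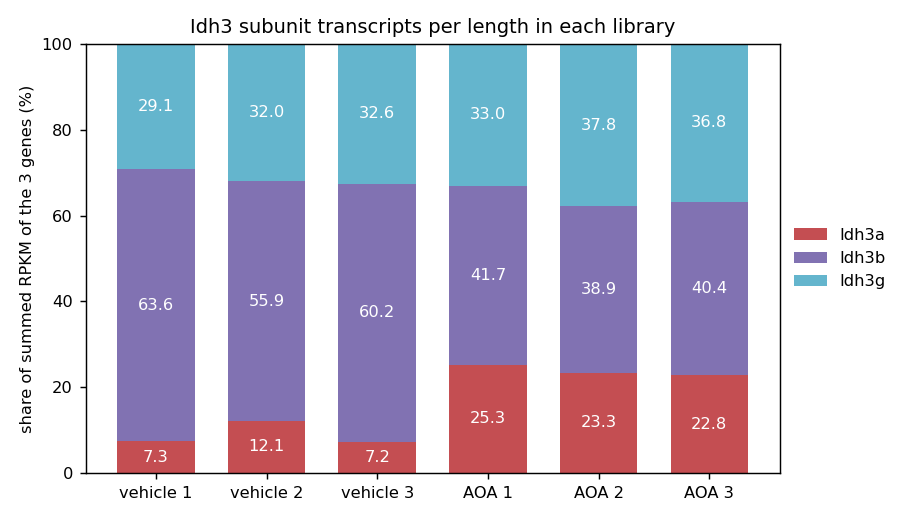
Shares of Idh3a, Idh3b and Idh3g in their summed RPKM (percent of the sum, stacked to 100) in each of the 6 libraries. The Idh3a share is 7.17% to 12.1% in the vehicle libraries and 22.8% to 25.3% in the AOA libraries.

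The NADP-linked genes were not called one by one. Idh1 was at 22.9, 11.0 and 24.3 CPM with vehicle and at 13.7, 15.3 and 10.7 CPM with AOA, so that vehicle replicate 2 fell among the AOA libraries. The log2 fold change was -0.55 (standard error 0.29, 95% interval -1.20 to 0.09, adjusted p = 0.133 by edgeR), an interval that holds falls as well as a small rise, and the level was lower in 2 of 3 mice. Without vehicle replicate 2 it was called lower, with a log2 fold change of -0.80 (adjusted p = 0.00438).

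Idh2 was at 37.8, 23.3 and 48.9 CPM with vehicle and at 52.6, 48.6 and 48.6 CPM with AOA. Vehicle replicate 3 reached the AOA level and vehicle replicate 2 was again the lowest. The log2 fold change was 0.44 (standard error 0.23, 95% interval -0.08 to 0.97, adjusted p = 0.138 by edgeR), and without vehicle replicate 3 it was 0.74 and called (adjusted p = 0.0221). The SD of the vehicle libraries was 35.1% of their mean for Idh2 and 37.6% for Idh1, against 4.62% and 17.4% in the AOA libraries. Counting error alone gives at most 5.22% for Idh2 and 7.58% for Idh1 in their lowest library.

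Both genes were lowest in the same vehicle library, and their ratio spread less between vehicle libraries than either gene. Idh1 relative to Idh2, in RPKM, was 0.424, 0.331 and 0.347 with vehicle and 0.181, 0.219 and 0.154 with AOA. All AOA ratios were below all vehicle ratios. The log2 difference was -0.996 ± 0.35 (SD over 3 mice), lower in 3 of 3 mice. The unpaired exact permutation test gave p = 0.1 and an adjusted p of 0.2 over the 4 ratios. With each library left out the difference lay between -1.13 and -0.87. The summed NADP-linked genes relative to the mean Idh3 subunit, in RPKM, were 0.410, 0.248 and 0.467 with vehicle and 0.393, 0.420 and 0.387 with AOA. That log2 ratio differed by 0.14 ± 0.55 (SD over 3 mice, exact permutation p = 0.9, adjusted p = 0.9), and by -0.13 without vehicle replicate 2, so no direction was detectable.

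**Figure D3:**
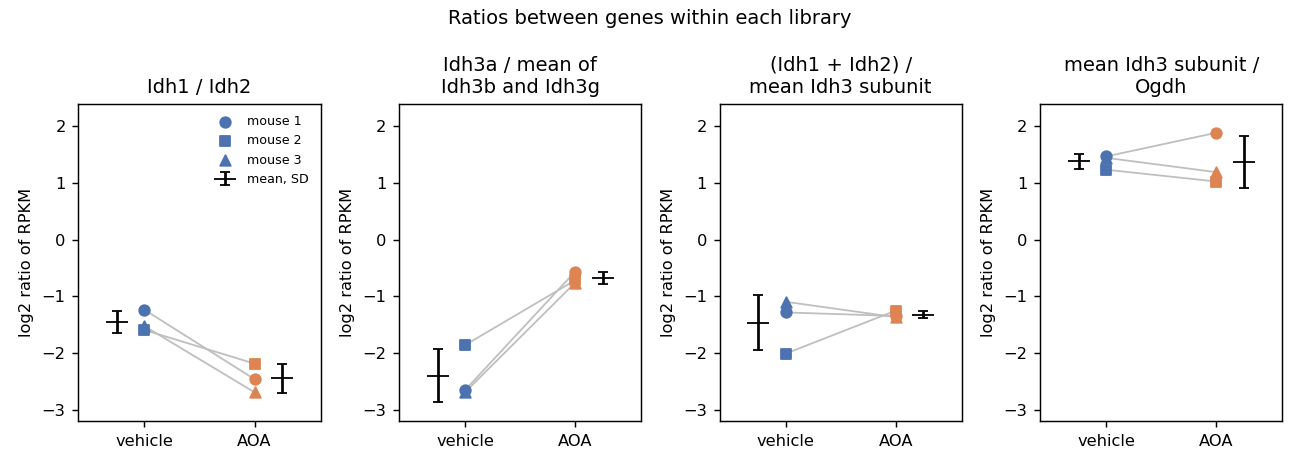
Log2 ratios of RPKM within each library for 4 pairs of genes or sums, by group, with grey lines joining the libraries of a mouse and black marks for the mean and SD. The ratio of Idh1 to Idh2 and that of Idh3a to its partners do not overlap between the groups (differences of -0.996 and 1.72), while the others differ by 0.14 and -0.01.

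Ogdh, the E1 component that consumes 2-oxoglutarate, was at 194, 218 and 213 CPM with vehicle and at 175.5, 285 and 260.3 CPM with AOA. AOA replicate 1 was the lowest of all 6 libraries and AOA replicates 2 and 3 were the highest. The log2 fold change was 0.21 (standard error 0.19, 95% interval -0.21 to 0.62, adjusted p = 0.377 by edgeR). Without AOA replicate 1 it was 0.39 and called (adjusted p = 0.0235). Ogdh has the longest transcript of the 7, at 6984 bases in the deposited lengths, and with the length trend of each library removed its log2 fold change was 0.37 (adjusted p = 0.0480). The mean Idh3 subunit relative to Ogdh, in RPKM, was 2.77, 2.35 and 2.72 with vehicle and 3.70, 2.04 and 2.28 with AOA, a log2 difference of -0.01 ± 0.38 (SD over 3 mice, exact permutation p = 0.9, adjusted p = 0.9).

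D2hgdh, which removes D-2-hydroxyglutarate, had the lowest mean level per length of the 7 genes. Its CPM was 19.2, 23.8 and 20.0 with vehicle and 13.7, 13.4 and 14.02 with AOA. The AOA libraries lay within a narrow range below every vehicle library. The log2 fold change was -0.62 (standard error 0.16, 95% interval -0.97 to -0.26, adjusted p = 0.00908 by edgeR), and within mice the log2 CPM fell by 0.48, 0.83 and 0.51. The raw counts behind it were 242 to 376 per library, for which counting error is at most 6.43%.

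**Figure D4:**
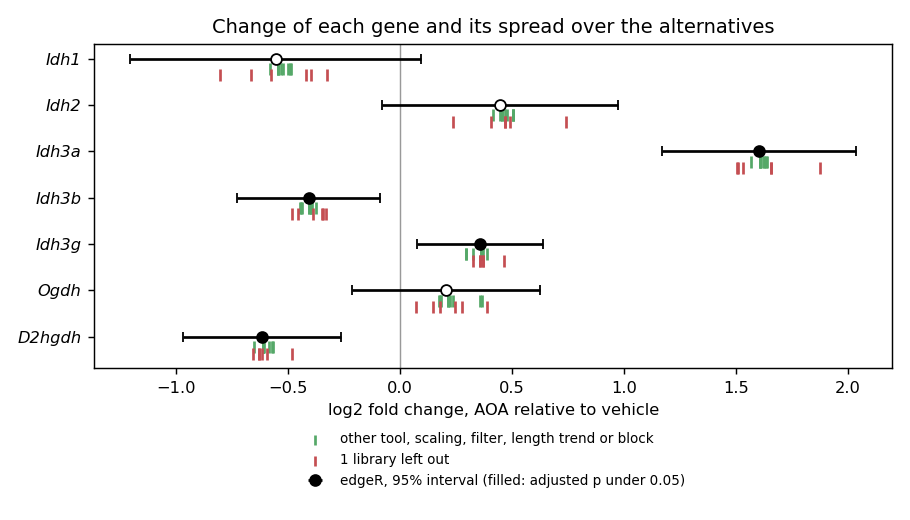
Log2 fold change of each gene, AOA relative to vehicle, by edgeR (circle, filled where the adjusted p is under 0.05, with the 95% interval), with green ticks for other tools, scalings, filters, the length trend or the replicate block and red ticks for fits with 1 library left out. No tick changes sign, Idh3a stays between 1.51 and 1.87, and D2hgdh stays between -0.66 and -0.48.

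Ordered by RPKM, the vehicle libraries had Idh3b first at 140 ± 14.6, then Idh3g at 72.9 ± 7.16, Ogdh at 29.8 ± 1.78, Idh2 at 21.5 ± 7.56, Idh3a at 20.5 ± 5.35, Idh1 at 7.97 ± 3.00 and D2hgdh at 5.99 ± 0.708 (SD, n = 3 each). Neighbours whose libraries overlapped were Ogdh with Idh2, Idh2 with Idh3a, and Idh1 with D2hgdh. In AOA libraries the order was Idh3b at 105 ± 9.86, Idh3g at 93.4 ± 1.10, Idh3a at 62.3 ± 7.10, Ogdh at 34.4 ± 8.22, Idh2 at 29.3 ± 1.36, Idh1 at 5.42 ± 0.942 and D2hgdh at 3.91 ± 0.0927 (SD, n = 3 each), and Ogdh with Idh2 was the one overlapping pair of neighbours. By mean, Idh3a was in the fifth place with vehicle and in the third with AOA. This order rests on the deposited lengths of Idh3b, Idh3g, Idh3a and Ogdh, 1520, 1331, 2404 and 6984 bases, whose annotation is not given. Their merged exons in GENCODE vM21 span 3422, 2701, 5072 and 5456 bases, and with other lengths the places can differ.

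The genes whose log2 CPM followed each member most closely over the 6 libraries were Ranbp1 and Strap for Idh3a (Pearson r of 0.999 for both), Igflr1 and Zfp97 for Idh3b (0.998 for both), Tmod3 and Pepd for Idh3g (0.993 and 0.989), Ccr1 and Gm11532 for D2hgdh (0.998 and 0.997), Gabarapl1 and Bambi-ps1 for Idh1 (0.990 and 0.984), Pcgf5 and Plcl2 for Idh2 (0.996 and 0.991) and Septin9 and Eif3c for Ogdh (both 0.99 when rounded). These are descriptions over libraries that share group and depth, and the first 2 of 11759 genes are shown for each.

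The enzymes around these reactions were read from 8 lists of 51 genes, of which 43 were tested, 26 called higher and 4 lower. Ogdhl, Dhtkd1, Adhfe1, Aadat, Slc25a21, Me1, Me3 and Aldh1l2 were not analysed here. The median log2 fold change of the 43 tested genes was 0.55, against 0.21 for the 7 members and -0.02 for all tested genes, and 69.8% were called against the 53% of all tested genes. All 3 tested partners of OGDH in its complex rose, against 26.2% of all tested genes, and no relative of OGDH was tested. These were Dlst, the E2 component, with a log2 fold change of 0.55 (adjusted p = 0.00602), Dld, the E3 component, with 0.45 (adjusted p = 0.00953), and Mrps36, a small subunit that links E3 to the complex, with 0.62 (adjusted p = 0.0287). The call of Mrps36 was lost without vehicle replicate 1, vehicle replicate 3 or AOA replicate 1.

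Phgdh, Ldha, Mdh1 and Mdh2, whose enzymes can form 2-hydroxyglutarate as a side reaction, rose by log2 fold changes of 1.22, 1.38, 0.81 and 0.52, with adjusted p of at most 0.00671 by edgeR.

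Among the genes of citrate supply, Acly, the cytosolic citrate lyase, rose by 0.66 (adjusted p = 0.00615) and Cs, citrate synthase, by 0.44 (adjusted p = 0.0246). The call of Cs was lost without vehicle replicate 1, vehicle replicate 3, AOA replicate 2 or AOA replicate 3. Aco1, the cytosolic aconitase (-0.19, adjusted p = 0.376), and the citrate carrier Slc25a1 (0.23, adjusted p = 0.229) were not called. Of the 9 genes of the citrate cycle after 2-oxoglutarate 7 rose and 0 fell, against 26.2% of all tested genes called higher and 26.8% lower, led by Fh1 (fumarase), Sdhb (the iron-sulfur subunit of succinate dehydrogenase) and Suclg2 (a subunit of succinyl-CoA ligase), at 1.24, 1.05 and 0.94.

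Of the enzymes that exchange 2-oxoglutarate and glutamate with amino acids, 3 of 9 tested rose and 0 fell. The share called, 33.3%, was below the 53% of all tested genes, and 3 of 9 higher lay near the 26.2% of all genes, so the count is no result about the list. Psat1, of serine synthesis, rose by 1.93 (adjusted p = 3.83e-04), Oat, ornithine aminotransferase, by 1.598 (adjusted p = 2.52e-05) and Bcat1, the cytosolic branched-chain aminotransferase, by 1.32 (adjusted p = 0.0187). The call of Bcat1 was lost without vehicle replicate 1, vehicle replicate 3 or AOA replicate 2, and without AOA replicate 1 the number of called genes in this list was 5. Both tested carriers of 2-oxoglutarate or its exchange partners rose (26.2% of all tested genes did), with Slc25a10, the dicarboxylate carrier, at 1.86 (adjusted p = 3.12e-05) and Slc25a11, the 2-oxoglutarate and malate carrier of the malate-aspartate shuttle, at 0.40 (adjusted p = 0.0333). Among the fits with a library left out, the call of Slc25a11 held without vehicle replicate 2 and was lost without each of the other 5.

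Among other enzymes that form or can form NADPH, here called NADPH-forming, 4 of 8 tested rose and 1 fell. That is a share called of 62.5%, near the 53% of all tested genes. The list does not weigh which cofactor an enzyme prefers, so a rise of Me2 or Mthfd2 is no measure of NADPH supply. Mthfd1 and Mthfd2, of folate metabolism, rose by 2.44 and 0.94 and Me2, the mitochondrial malic enzyme, by 0.66, while Aldh1l1, another folate enzyme, fell (-1.19, adjusted p = 0.0334), a call lost without vehicle replicate 1, vehicle replicate 3, AOA replicate 1 or AOA replicate 3. The sirtuins were the list that moved down, with 3 of 3 lower against 26.8% of all tested genes. Sirt3, the mitochondrial deacetylase known to act on IDH2, was at 50.6, 35.4 and 43.1 CPM with vehicle and at 15.9, 13.4 and 11.9 CPM with AOA, a log2 fold change of -1.65 (adjusted p = 1.31e-04 by edgeR). Its groups did not overlap. Sirt4 and Sirt5, at lower levels, had -0.91 (adjusted p = 0.0187) and -1.15 (adjusted p = 0.0272). The call of Sirt4 was lost without vehicle replicate 1, AOA replicate 2 or AOA replicate 3, and that of Sirt5 without vehicle replicate 2, AOA replicate 1 or AOA replicate 3, and without vehicle replicate 2 the log2 fold change of Sirt5 was -0.62.

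**Figure D5:**
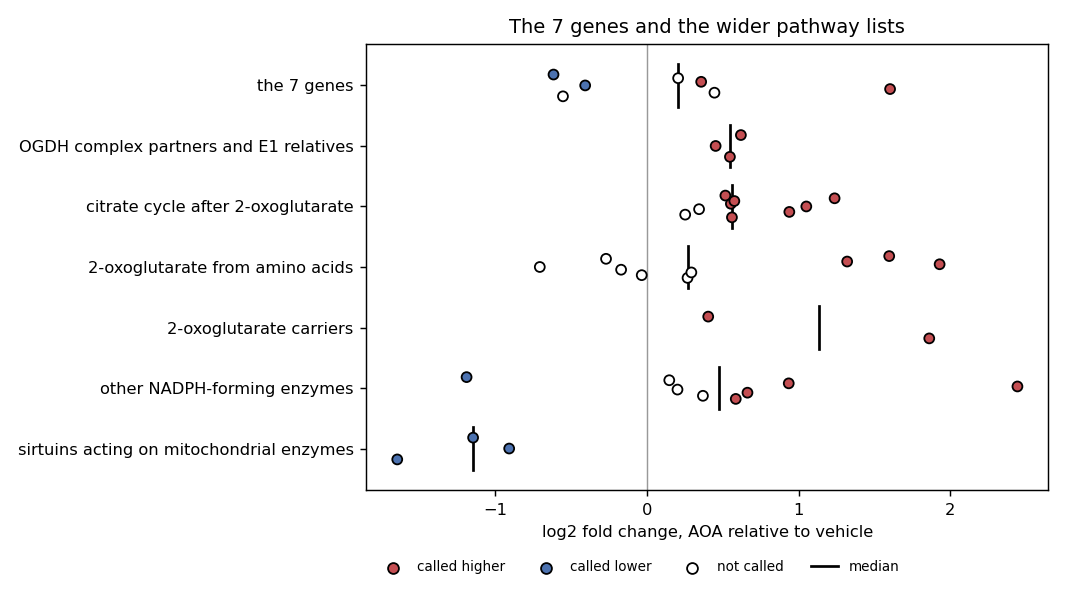
Log2 fold change (AOA relative to vehicle) of the 7 genes and of the tested genes of 6 of the wider lists, 1 point per gene, red where called higher, blue where called lower and white where not called, with a black line at the median of each row. The median is 0.21 for the 7 genes, 0.55 for the OGDH list, of which only complex partners were tested, and -1.15 for the sirtuins.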

How the data were processed

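Messenger RNA of 6 libraries (3 vehicle, 3 AOA) was sequenced from stranded libraries as paired-end 75-base reads. The authors deposited raw read counts per gene, each gene with its symbol, length and Entrez number. Alignment used STAR with its defaults, and only reads that mapped uniquely entered the counts. The submitters' processing notes name featureCounts, DESeq2 and mm10. As to the annotation, the strand setting and any gene filter, the sources used here give none.

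Genes were kept by filterByExpr (minimum count 10), normalised by TMM and tested in edgeR 4.0.16 (R 4.3.3) by its quasi-likelihood F test with robust fitting, adjusted by Benjamini-Hochberg over 11759 genes. CPM use TMM library sizes, log2 CPM have a prior count of 2, and standard errors are the log2 fold change over the root of the F statistic. Ratios were compared by exact permutation of libraries, without the pairing by mouse. Alternatives were DESeq2 1.42.0, limma 3.58.1, other scalings and filters, removal of each library's trend with gene length (loess span 0.3), the mouse as a replicate block, and each library left out. The steps were tested on simulated data. Intervals of counting error cover that error only.

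The sample labels name the mouse donor of each library, and the same 3 donors stand in both groups, which pairs them. As a check, the deviations of a mouse's libraries from their group means had a Pearson r of 0.0868, 0.189 and 0.194 in mice 1, 2 and 3 (over genes, which are no replicates). Replicates differed by more than sampling noise. All members were named, as were all tested genes of lists with up to 6 symbols, up to 3 called genes per direction of longer lists, and the 2 genes most like each member. The members and lists were chosen with earlier results of these data known. The 4 erythroid markers listed were not analysed here. Some genes of the wider lists are not reported here.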

Additional observations from a re-analysis of the deposited data

How the results depend on the processing

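No called gene of the 7 changed direction under any of the 15 alternatives to its fit, and the calls of Idh3a and D2hgdh passed in all of them. Leaving out each library gave 1 to 3 members called higher and 1 to 3 called lower, 2519 to 3499 of all genes higher and 2433 to 3297 lower. With the mouse as a replicate block 1 member was called higher, since Idh3g no longer passed (log2 fold change 0.36), and the block changed no other call among the members. With the 10 CPM filter the called lower genes were 0 of the other NADPH-forming enzymes and 1 of the sirtuins, because fewer genes were tested. Over left-out libraries, the genes of amino acid origin called higher ranged from 2 to 5, the carriers from 1 to 2, the NADPH-forming enzymes called lower from 0 to 1 and the sirtuins called lower from 1 to 3. The log2 ratio of NADP-linked to NAD-linked genes ranged from -0.13 to 0.33 and that of the mean Idh3 subunit to Ogdh from -0.27 to 0.16, both with a change of sign. Pairing by mouse cannot move the 4 ratio differences (-0.996, 1.72, 0.14 and -0.01), because the mean paired difference equals the difference of the group means. With 3 pairs no exact p can be under 0.25. The cause of these changes was not tested. With 3 cultures per group, the width of the intervals limits what can be said of Idh1, Idh2 and Ogdh.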
